A study of Mus musculus with 6 samples.

Results

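The genes described here encode 10 proteins that bring fatty acids into cells or bind them there, and they were chosen by name from the 17460 genes listed for each liver. The 10 were 4 fatty acid binding proteins (Fabp1, Fabp2, Fabp4 and Fabp5), 3 fatty acid transport proteins (Slc27a2, Slc27a4 and Slc27a5), the scavenger receptor Cd36, the very low density lipoprotein receptor Vldlr and lipoprotein lipase (Lpl). All 10 were found in the table and all passed the filter on low values. They were measured by RNA sequencing of 6 whole-liver samples from C57BL/6 mice, 3 control and 3 Blnc1 LKO. The sequencing asked what the loss of the long non-coding RNA Blnc1 does to gene expression in fatty liver disease. Both groups were 9 months old and had eaten a NASH diet, rich in fructose, trans fat and cholesterol, for 24 weeks. The diet produces non-alcoholic steatohepatitis, a fatty liver with inflammation and scarring. Per the study's methods, the LKO mice were transgenic for Cas9 and received an adenovirus carrying guide RNAs against Blnc1 through the tail vein. The control mice carried Cas9 too and received an adenovirus expressing GFP. This adenovirus enters hepatocytes far better than the other cells of the liver, so the deletion model is mainly one of hepatocytes, while the RNA came from all liver cells. The sex of the mice is not given in the sources used here. Since the table lists no gene of the name Blnc1, its loss could not be checked in these libraries.

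Long-chain fatty acids reach the liver bound to albumin or packed as triglyceride in lipoproteins. Lipoprotein lipase frees fatty acids from the triglyceride, Vldlr binds triglyceride-rich particles, and Cd36 with the Slc27a proteins takes fatty acids across the membrane or traps them as acyl-CoA. Inside the cell the small Fabp proteins hold the fatty acids in solution and carry them to the organelles that burn or store them. In a healthy liver Fabp1, Slc27a2 and Slc27a5 are genes of the hepatocyte. Fabp4 is best known from adipocytes, macrophages and endothelial cells, and Fabp2 from the intestine. Several of these genes are classic targets of the peroxisome proliferator-activated receptors (PPARs), which bind with the retinoid X receptor to a direct repeat of AGGTCA with 1 base between the copies, called DR1. The liver X receptors bind a repeat with 4 bases between the copies, called DR4.

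Promoter sequence is shown first for the pair of genes whose 250 bases before the start came closest to a DR1. The promoter table of RefSeq (GRCm38.p6) held 7 promoters of 6 of the genes, with Vldlr at 2 starts. Each was searched on both strands for 2 copies of AGGTCA 1 or 4 bases apart, and the match with fewest differing letters was kept. In the runs below, which give the gene's own strand 5′ to 3′, capitals mark that DR1 match, which lies on the opposite strand in both genes.
Fabp1, chr6:71199788-71199847 (+ strand): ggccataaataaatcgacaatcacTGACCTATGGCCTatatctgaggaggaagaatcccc
Cd36, chr5:17835924-17835983 (− strand): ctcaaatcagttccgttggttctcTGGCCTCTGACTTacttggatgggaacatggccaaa
The Fabp1 match differed from the DR1 by 1 letter and lay from base 67 to base 55 before the RefSeq start, and 0.484% of 32851 promoters held one as close. The Fabp1 promoter also held TATAAA, the core letters of a TATA box, in its last 50 bases, as did 2.63% of all promoters. In the GENCODE annotation given below, Fabp1 starts earlier, at chr6:71199827, within the run shown. The last 50 bases before the RefSeq start thus lie inside the gene as GENCODE draws it. For Cd36 the match differed by 2 letters, which 3.24% of promoters equalled or bettered. Its start lies inside the span of the gene, which has more than 1 start site. Slc27a2 and Fabp2 came within 3 letters of a DR1, as did 21.3% of all promoters, and Vldlr and Slc27a4 stood 4 or more letters away. The RefSeq start of Slc27a2 also lies inside its GENCODE gene. No promoter of the set came closer than 3 letters to a DR4, a distance reached by 18.5% of promoters. These are matches of letters and say nothing of binding.

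The Fabp genes are alike enough to raise the question of whether their reads could be mixed up. Fabp4 and Fabp5, both on chromosome 3, had the most similar coding sequences of the family (66.9% of aligned bases the same). Their most alike stretch of 60 coding bases is shown because it is where a read would be hardest to place, with capitals at the 16 bases that differ.
Fabp4, coding bases 55 to 114: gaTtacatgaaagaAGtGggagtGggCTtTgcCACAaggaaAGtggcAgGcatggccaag
Fabp5, coding bases 61 to 120: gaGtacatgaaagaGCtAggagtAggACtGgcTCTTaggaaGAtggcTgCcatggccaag
The other 44 bases of the stretch were the same, and no coding run longer than 12 bases was shared by any pair of the 4 Fabp genes. Among the 3 Slc27a genes the longest shared run was 14 bases. A read longer than these runs differs between the relatives. Fabp5 also has pseudogenes, and 21.1% of its 50-base words occur in 5 of them, most often Gm6166. The authors' counting could have lost or split such reads, so the level of Fabp5 is uncertain. Slc27a2 has 419 exonic bases under the lincRNA Gm26697 on the opposite strand, and the library kit did not mark strand, so reads from that stretch cannot be assigned to either gene. Words of Lpl were shared with other genes in 1.81% of cases, and those of the remaining genes in none.

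In the GENCODE M21 annotation of GRCm38, Fabp1 lies at chr6:71199827-71205023 (+ strand), Fabp2 at chr3:122895072-122899506 (+), Fabp4 at chr3:10204088-10208576 (−) and Fabp5 at chr3:10012548-10016607 (+). Each Fabp gene has 4 exons and between 127 and 135 codons. Slc27a2 lies at chr2:126552407-126588243 (+), Slc27a4 at chr2:29802634-29817522 (+) and Slc27a5 at chr7:12988346-12998192 (−), with 10 to 13 exons and 620 to 689 codons. Cd36 lies at chr5:17781690-17888801 (−), Vldlr at chr19:27216484-27254231 (+) and Lpl at chr8:68880491-68907448 (+). Reads counted over whole exons cover the coding sequence and the UTRs together.

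The libraries held from 65384969 to 89350181 reads on listed genes, and the 10 genes together took 0.727% to 0.753% of them in control livers and 0.737% to 0.909% in LKO livers. The lowest count of the set, 603 reads of Vldlr, carried a counting error of 4.07%. The labels do not state that the livers of a group came from separate animals, and p-values measure only the spread between these samples. In whole liver, fewer cells of a type and less RNA per cell cannot be told apart.

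Levels of different genes were compared as RPKM, in which reads are scaled to the length of the transcript and to all reads of the library, with the longest coding transcript of each gene. Fabp1, the hepatocyte's main fatty acid carrier, stood far above the rest at 7989 ± 311 RPKM (SD, n = 3 control livers), 16.8 times the next gene. Slc27a2, which takes up and activates very long-chain fatty acids, followed at 477 ± 9.66 and Slc27a5, which activates bile acids as well as fatty acids, at 273 ± 8.91. Both are hepatocyte genes, and they exceeded the intestinal form Fabp2 at 211 ± 16.3 and the receptor Cd36 at 133 ± 2.37. The lower end of the order held Fabp4 at 61.2 ± 4.41, Lpl at 44.8 ± 3.85, Fabp5 at 22.6 ± 3.41 and Slc27a4 at 12.7 ± 1.07 RPKM. Vldlr closed it at 1.58 ± 0.43 RPKM (SD, n = 3). In control livers no gene overlapped with its neighbour in this order. Over all 6 livers Fabp4 and Lpl overlapped, since Fabp4 ran from 34.5 to 65.7 RPKM and Lpl from 39.0 to 49.5. With the length of all exons of a gene in place of 1 transcript, Lpl came above Fabp4 (17.6 against 12.2 RPKM) and Slc27a4 above Fabp5 (11.7 against 6.25), so the order within these pairs rests on the transcript assumed.

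**Figure D1:**
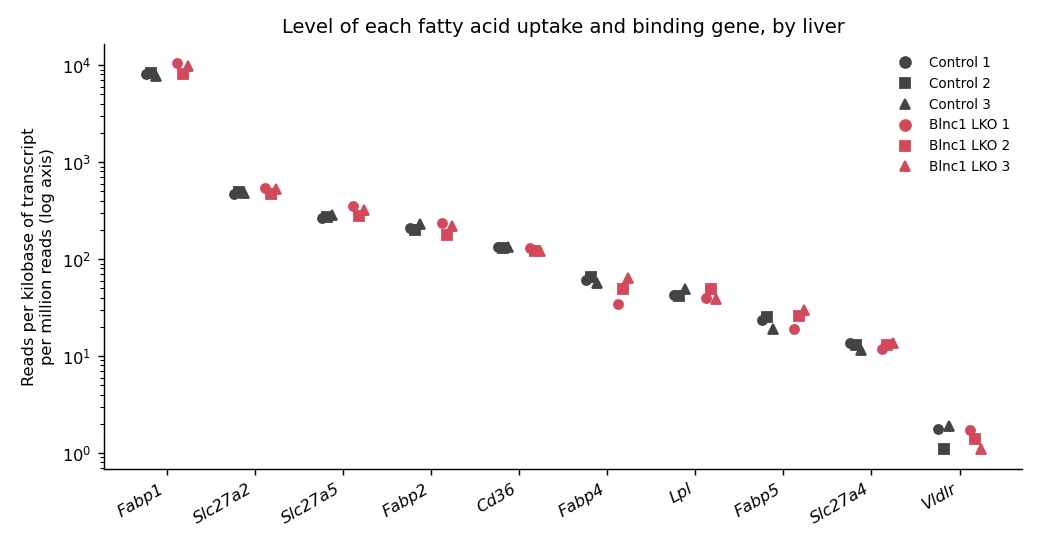
Level of each gene in each of the 6 livers, in RPKM on a log axis, with control and LKO livers as separate points. Fabp1 lies 16.8 times above Slc27a2 in control livers, Vldlr lies lowest, and the points of the groups overlap for every gene but Cd36 on this scale.

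Loss of Blnc1 was compared with control by limma on log2(value + 1), where the value is the deposited normalized read count, with Benjamini-Hochberg adjustment over 17297 genes. None of the 10 genes passed an adjusted p under 0.05, against 1 gene of all tested (0.00578%). None had an unadjusted p under 0.05 in limma either, where 5.68% of all genes did. For none of the 10 did the 3 LKO livers lie all above or all below the 3 control livers, which was so for 10.6% of all genes. The mean on the log2 scale was higher in LKO livers for 5 of the genes and lower for 5, and the median log2 fold change was 0.0061, beside −0.00099 over all genes. Absolute log2 fold changes had a median of 0.12 in the set and 0.083 over all genes. DESeq2 on the recovered reads called 0.538% of the genes to which it gave an adjusted p, and none of the 10. These are statements about what 3 livers against 3 could show, and the intervals given for each gene say how large a change would have been compatible with the data.

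**Figure D2:**
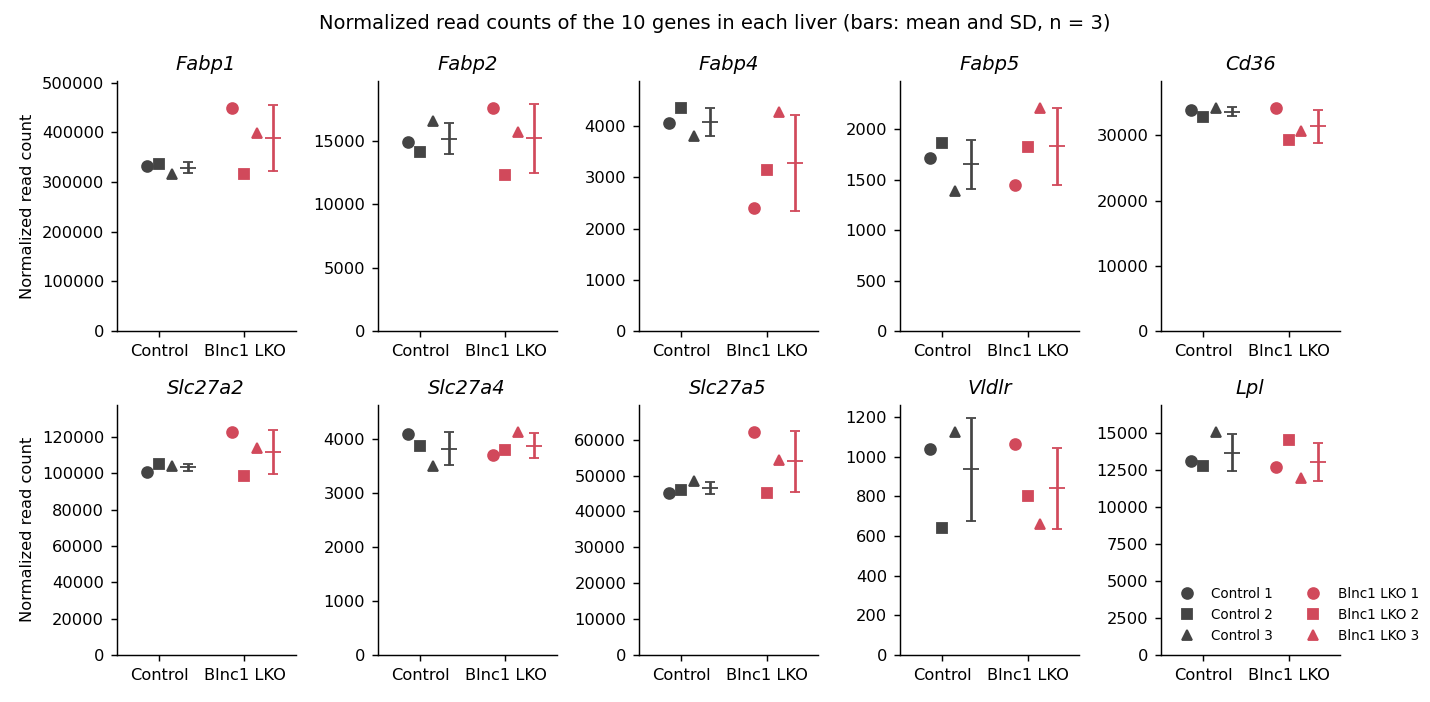
Normalized read count of each gene in every liver, 1 panel per gene with its own axis, points for livers and a bar for the mean of each group. The control and LKO points overlap in all 10 panels, and the LKO points of Fabp1, Slc27a2 and Slc27a5 spread over more of the axis than the control points.

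Fabp1 had 332813, 336143 and 315517 normalized reads in control livers and 449085, 316374 and 399440 in LKO livers. LKO livers 1 and 3 stood above all controls and LKO liver 2 among them, and the means were 328158 ± 11073 and 388300 ± 67054 (SD, n = 3 each). The log2 fold change was 0.23 (standard error 0.15, 95% interval −0.12 to 0.57, adjusted p = 0.951, limma). Fabp2, a carrier best known from enterocytes, had 14866, 14076 and 16525 in control and 17573, 12268 and 15653 in LKO livers. LKO liver 1 was the highest of all 6 and LKO liver 2 the lowest, with the means nearly equal at 15156 ± 1250 and 15165 ± 2686. Its log2 fold change was −0.01 (standard error 0.12, interval −0.29 to 0.27). The enterocyte genes Lct and Slc15a1 were at or below 7.14 normalized reads in every liver. Other genes of the list were higher, among them Vil1 (87.4 to 141 normalized reads) and Dpp4 (11784 to 13225). Of 8 enterocyte markers tested, 4 had higher and 4 lower means in LKO livers, and their summed level, most of it Apoa4, which hepatocytes also make, was 417094 to 490777 in LKO against 559516 to 639022 in control livers. The part of such cells in the values of Fabp2 was not tested.

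Fabp4, the fatty acid carrier of adipocytes and macrophages, had the lowest log2 fold change of the set. It had 4050, 4355 and 3809 normalized reads in control and 2404, 3149 and 4274 in LKO livers. LKO livers 1 and 2 lay below every control liver, whereas LKO liver 3 lay between the controls. The means of 4071 ± 274 and 3276 ± 941 (SD, n = 3 each) gave a log2 difference of −0.35 (standard error 0.17, interval −0.75 to 0.05, adjusted p = 0.899, limma). The value rested on single livers. It was −0.56 (unadjusted p = 0.0016) without LKO liver 3 and −0.15 without LKO liver 1, and neither passed the adjustment (adjusted p = 0.681 and 0.936, limma). The adipocyte genes Adipoq, Plin1 and Retn stayed at or below 4.18 normalized reads in each of the 6 livers. Other genes of the list were higher, among them Cfd (568 to 1789 normalized reads) and Plin4 (4339 to 7341). Cfd had a log2 fold change of 0.87 (adjusted p = 0.840, limma) and Plin4 of −0.20. Of the 8 adipocyte markers tested, 7 had higher and 1 a lower mean in LKO livers, with summed levels of 151292 to 239895 against 148815 to 158857 in control livers, most of them from Car3. All 10 of the lipid-associated macrophage markers had lower means in LKO livers, with a median log2 fold change of −0.22, and 2 of them an unadjusted p under 0.05 (Lgals3 and Gpnmb), beside 5.68% of all genes. The mean log2 level of this list relative to the control mean was −0.52, 0.02 and −0.38 in LKO livers 1, 2 and 3, against −0.04 to 0.08 in control livers. Summed normalized reads of the list ran from 125242 to 158941 in LKO and from 149167 to 157412 in control livers. In LKO livers 1, 2 and 3 Fabp4 stood at −0.76, −0.37 and 0.07, so the liver lowest in both was LKO liver 1, while LKO livers 2 and 3 ranked oppositely. Endothelial markers had lower means in LKO livers for 10 of 12, with a median of −0.10. An unadjusted p under 0.05 was found for 5 of them (Pecam1, Cdh5, Lyve1, Tie1 and Emcn), and for 5 (Pecam1, Cdh5, Tie1, Emcn and Gpihbp1) the groups did not overlap, beside 5.68% and 10.6% of all genes. Their summed level ran from 31336 to 32128 in LKO against 32220 to 34471 in control livers. The part of these cells in the values of Fabp4 was not tested.

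Fabp5, the epidermal form, which is also found in macrophages, had 1711, 1862 and 1389 normalized reads in control and 1452, 1827 and 2212 in LKO livers. Only LKO liver 3 lay above the controls. The means were 1654 ± 242 and 1830 ± 380, a log2 fold change of 0.14 (standard error 0.16, interval −0.22 to 0.49).

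Cd36, which brings long-chain fatty acids into many cell types and is known to be induced in fatty liver, had 33845, 32804 and 34213 in control and 34181, 29247 and 30686 in LKO livers. LKO livers 2 and 3 lay below every control, and LKO liver 1 among the highest. Its means of 33621 ± 731 and 31372 ± 2537 gave a log2 fold change of −0.10 (standard error 0.071, interval −0.27 to 0.06, adjusted p = 0.960, limma), the narrowest interval of the set. Scaled to all reads of the library instead, as RPKM, Cd36 had 134, 130 and 135 in control and 129, 121 and 121 in LKO livers. These did not overlap. The share of all genes without overlap was not counted on that scaling, and was 10.6% for the deposited values. On the scaling to all reads, limma gave Cd36 a log2 difference of −0.11 (standard error 0.053, adjusted p = 0.960). Without LKO liver 1 the log2 fold change was −0.17 (unadjusted p = 0.019, adjusted p = 0.837, limma).

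The 2 hepatocyte transport proteins had like patterns. Slc27a2 had 100977, 104978 and 103978 in control and 123073, 98625 and 113833 in LKO livers. Slc27a5 had 45062, 45944 and 48419 in control and 62263, 45159 and 54449 in LKO livers. For both genes LKO livers 1 and 3 lay above every control liver and LKO liver 2 did not. The means of Slc27a2 were 103311 ± 2082 and 111844 ± 12345, a log2 fold change of 0.11 (standard error 0.097, interval −0.11 to 0.33). Those of Slc27a5 were 46475 ± 1740 and 53957 ± 8563, a log2 fold change of 0.20 (standard error 0.11, interval −0.05 to 0.46, adjusted p = 0.927, limma). Slc27a4, the transport protein found in most tissues, had 4097, 3872 and 3494 in control and 3698, 3802 and 4142 in LKO livers, with only LKO liver 3 above the controls. Its log2 fold change of 0.02 had a standard error of 0.074 (interval −0.14 to 0.19).

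Of the genes that act on lipoproteins, Lpl had 13152, 12814 and 15131 in control and 12698, 14527 and 11995 in LKO livers. LKO livers 1 and 3 were the lowest of all 6, close to the lower controls. The means were 13699 ± 1252 and 13074 ± 1307, and the log2 fold change was −0.07 (standard error 0.089, interval −0.27 to 0.13). Vldlr, whose rise in hepatocytes is known to accompany steatosis, had 1040, 642 and 1128 in control and 1063, 801 and 661 in LKO livers. All 3 LKO values lay within the range of the controls. The means of 937 ± 259 and 842 ± 204 gave a log2 fold change of −0.14 and the widest interval of the set, −0.66 to 0.38 (standard error 0.23).

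**Figure D3:**
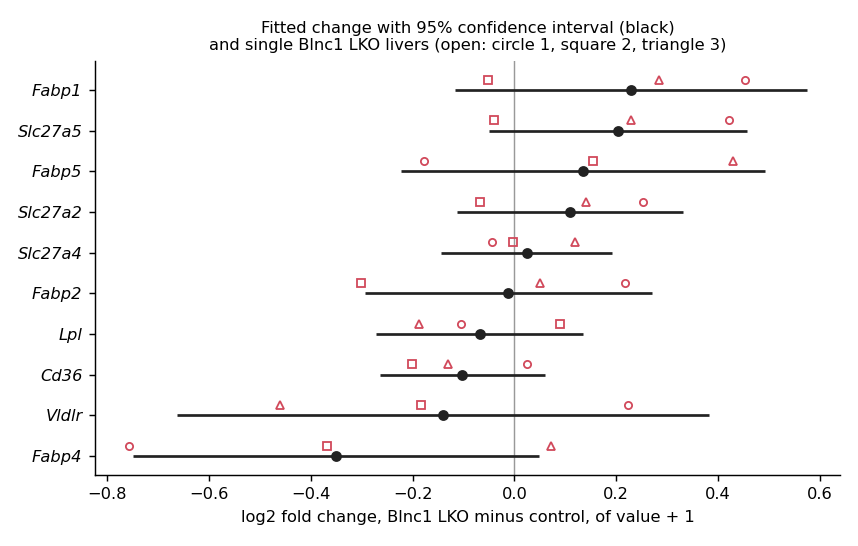
Log2 fold change of each gene, LKO minus control, on the log2(value + 1) scale from limma, with points for the estimate and bars for the 95% interval. Every interval crosses 0, from Fabp4 at −0.35 (−0.75 to 0.05) to Fabp1 at 0.23 (−0.12 to 0.57).

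Single LKO livers differed more than single control livers. The SD of the log2 values was larger in the LKO group for 8 of the 10 genes, and for 67.0% of all genes tested. The median ratio of the SD in LKO to that in control was 2.95 in the set and 1.43 over all genes. A set of 5 genes shared an order among the LKO livers. Fabp1, Slc27a5, Slc27a2, Fabp2 and Cd36 were highest in LKO liver 1, followed by liver 3 and then liver 2. The share of all genes with this order was not counted, so the order cannot be called particular to these genes. Relative to the control mean, Fabp1 stood at 0.45, −0.05 and 0.28 on the log2 scale in LKO livers 1, 2 and 3, and Slc27a5 at 0.42, −0.04 and 0.23. Fabp4, Fabp5 and Slc27a4 were highest in LKO liver 3 and lowest in LKO liver 1, and Fabp5 stood at −0.18, 0.15 and 0.43. Without LKO liver 2 the log2 fold changes were 0.37 for Fabp1, 0.33 for Slc27a5 and 0.20 for Slc27a2, with unadjusted p of 0.012, 0.0038 and 0.032 and adjusted p from 0.252 to 0.420 (limma). Without LKO liver 1 those of Fabp1, Slc27a5 and Slc27a2 were 0.12, 0.09 and 0.04, so their size rested on which LKO livers entered.

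**Figure D4:**
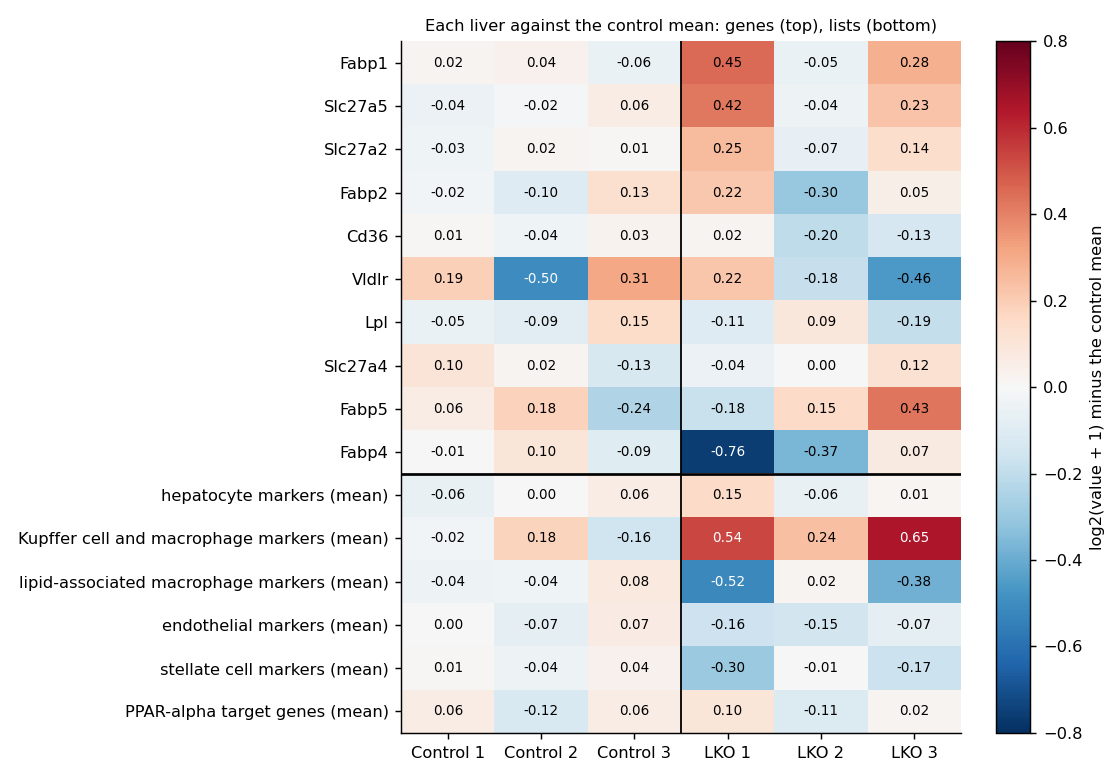
Difference of each liver from the control mean in log2(value + 1), with genes in the upper rows and means of marker lists in the lower rows, and blue below and red above the control mean. LKO liver 1 is highest for Fabp1 (0.45) and Slc27a5 (0.42) and lowest for Fabp4 (−0.76), and LKO liver 2 is near or below the control mean for Fabp1, Slc27a5 and Slc27a2.

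The hepatocyte markers were high in every liver, with at least 5570320 summed normalized reads over 12 genes, so the tissue carried its labelled identity. The mean log2 level of this list was 0.15, −0.06 and 0.01 in LKO livers 1, 2 and 3, and ran from −0.06 to 0.06 in control livers. The LKO livers stood here in the same order as for Fabp1, as they did in the list of female-biased genes below. A list of 20 genes known to be higher in male than female mouse liver had that order too, so it was not particular to 1 list. All 20 had higher means in LKO livers, 16 of them with an unadjusted p under 0.05 and none past the adjustment in limma. Over all 17297 genes, 5.68% had an unadjusted p under 0.05, 509 of them with a higher mean. The mean log2 level of this list was 1.93, 0.67 and 1.36 in LKO livers 1, 2 and 3, and −0.31 to 0.54 in control livers, with sums of 1020420 to 1375780 normalized reads in LKO and 693205 to 973939 in control livers. Among 19 tested genes known to be higher in females, 11 had higher and 8 lower means in LKO livers. Their median log2 fold change was 0.067. An unadjusted p under 0.05 in limma was found for 1 higher gene (Cyp3a44) and 2 lower genes (Cyp17a1 and Nipal1), beside 5.68% of all genes. Cyp3a44 had at most 36.9 normalized reads in a liver. The log2 fold change was −1.19 for Cyp17a1 and −1.10 for Nipal1. The mean log2 level of the female list was 0.69, −0.18 and −0.12 in LKO livers 1, 2 and 3, and −0.35 to 0.21 in control livers. Kupffer cell and macrophage markers stood at 0.54, 0.24 and 0.65 in LKO livers, with a control range of −0.16 to 0.18, and 8 of the 12 had higher means. The median log2 fold change of this list was 0.085. An unadjusted p under 0.05 in limma was found for 5 of the 12, all higher (Adgre1, Clec4f, Vsig4, Timd4 and Marco), beside 5.68% of all genes. Log2 fold changes of the Kupffer cell and macrophage markers ranged from Marco at 3.03, Timd4 at 1.10 and Vsig4 at 1.04 down to Cd68 at −0.13. Their summed level was 91877 to 108000 in LKO and 88585 to 99903 in control livers. Stellate cell markers stood at −0.30, −0.01 and −0.17, with 8 of 10 lower in mean, a median log2 fold change of −0.04 and sums of 84252 to 99728 in LKO against 99157 to 108646 in control livers. Col1a1 (−0.61), Acta2 (−0.52) and Col3a1 (−0.47) had the lowest log2 fold changes of the stellate list, and the other 7 lay between −0.10 and 0.16. Those 3 had an unadjusted p under 0.05 in limma, and the other 7 did not. The part of these cells and genes in the spread of the 10 genes was not tested.

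Within a liver, ratios of 2 genes are free of the scaling between libraries. The log2 ratio of Fabp4 to Fabp1 was −6.36, −6.27 and −6.37 in control livers and −7.54, −6.65 and −6.55 in LKO livers. All 3 LKO livers lay below all controls, with LKO liver 1 farthest. The difference of −0.58 is a ratio 0.669 times that of control, with p = 0.1 in an exact two-sided permutation test, the smallest that 3 livers against 3 can give, so the design cannot reach the threshold. The ratio was chosen with earlier results of these data known. Fabp5 to Fabp1 differed by −0.09 (exact permutation p = 0.9) and Slc27a4 to Slc27a5 by −0.18 (exact permutation p = 0.4), and the groups overlapped for both ratios. As a share of its family per transcript length, Fabp1 made up 96.5%, 96.6% and 96.2% of the summed RPKM of the 4 Fabp genes in control livers and 97.3%, 96.9% and 96.9% in LKO livers. Fabp2 averaged 2.56 ± 0.29% and 2.17 ± 0.015% and Fabp4 0.738 ± 0.030% and 0.519 ± 0.17% (SD, n = 3 each), and for Fabp1, Fabp2 and Fabp4 the shares of the groups did not overlap. Shares of 1 sum depend on each other, and Fabp1 makes up most of this sum, so the 3 are not separate observations. The shares were not tested. The normalized reads of Fabp1, Fabp2 and Fabp4 each overlapped between the groups, while those of 10.6% of all genes did not. Slc27a2 held 62.5 ± 0.65% of the 3 Slc27a genes in control and 61.1 ± 1.0% in LKO livers, where the groups overlapped.

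Across the 6 livers, the gene most like each member was sought among 12487 genes with a mean of at least 100 normalized reads. The points come from 2 groups and share their scaling, and with 6 points and so many genes a high r is easily found, so the values are a description. Fabp1 was most like Emc4 (Pearson r = 0.996), Slc27a2 most like Lin7a (0.997), Slc27a5 most like Rnf4 (0.992) and Fabp2 most like Atg4c (0.998). Cd36 was most like Hadh (0.991), a dehydrogenase of mitochondrial fatty acid oxidation. For Fabp4 the gene was Als2cl (0.994), for Fabp5 Mgrn1 (0.989), for Slc27a4 Tmem192 (0.996), for Vldlr Mrpl24 (0.989) and for Lpl 5330417C22Rik (0.992). Among the 10 themselves, Slc27a2 and Slc27a5 were the most alike (r = 0.977), Fabp1 and Slc27a2 followed (0.965), and Fabp5 and Vldlr were the least alike (−0.877).

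Other genes of fatty acid uptake and its control were taken from 7 lists that held 84 genes in the table. Of these, 43 had higher and 41 lower means in LKO livers, with a median log2 fold change of 0.0018, and limma called none (background 0.00578%). At an unadjusted p under 0.05 there were 2 higher and 6 lower (background 5.68%), and for 3 higher and 6 lower genes the groups did not overlap (background 10.6%). DESeq2 on the recovered reads called 4 of them (background 0.538%), which were Cav1, Acot2, Sdc1 and Srebf1 (adjusted p from 0.0047 to 0.011), whereas edgeR called none (adjusted p = 0.543 for each).

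Cav1, the caveolin that forms membrane caveolae and takes part in fatty acid uptake, had 518, 689 and 731 normalized reads in control and 1228, 1035 and 879 in LKO livers. All LKO livers lay above all controls, and the log2 fold change was 0.70 (standard error 0.16, adjusted p = 0.548, limma). Of the 8 uptake genes in its list 2 had higher and 6 lower means, with Mfsd2a, a carrier of lysophospholipids with fatty acid chains, lowest at −0.26. Sdc1, a heparan sulfate proteoglycan by which hepatocytes take up remnant lipoproteins, had 14301, 13814 and 15708 in control and 11774, 12040 and 11174 in LKO livers. The groups did not overlap, and the log2 fold change was −0.32 (standard error 0.064, adjusted p = 0.548, limma). Marco, a macrophage scavenger receptor, had 32.6, 87.4 and 23.4 in control and 794, 95.8 and 509 in LKO livers, with LKO liver 2 barely above the highest control (log2 fold change 3.03, standard error 0.75, adjusted p = 0.577, limma). Stab1, an endothelial scavenger receptor, had a log2 fold change of −0.15, and Olr1, a receptor for oxidized low density lipoprotein, the lowest of its list at −0.31. The 13 lipoprotein and scavenger receptors had a median of −0.00079.

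Genes that control lipoprotein lipase were mostly near 0. Of 13 lipases and lipase regulators, 8 had higher and 5 lower means. Angptl4, which inhibits lipoprotein lipase and is induced by fatty acids, was highest at 0.11 (interval −0.12 to 0.35). Gm6484, an older symbol of Angptl8, an insulin-induced inhibitor of the lipase, was lowest. It had 3069, 3134 and 1210 in control and 1311, 1125 and 1280 in LKO livers, so control liver 3 resembled the LKO livers (log2 fold change −0.87, standard error 0.32, adjusted p = 0.840, limma). With each liver left out in turn, it passed the adjustment only without control liver 3 (log2 fold change −1.33, adjusted p = 0.010, limma). That fit drops the control nearest to the LKO livers, so it is no separate support for a difference.

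Among 12 acyl-CoA synthetases and acyl-CoA binding genes, which trap fatty acids after entry, 6 had higher and 6 lower means. Acsl1, the main synthetase of liver, had 58617, 61907 and 70506 in control and 89793, 58937 and 71100 in LKO livers (log2 fold change 0.19, standard error 0.15), with LKO liver 1 highest as for Fabp1. Acsl3, a synthetase of lipid droplets, had 2739, 3362 and 3874 in control and 2621, 2630 and 2201 in LKO livers (log2 fold change −0.41, standard error 0.12, adjusted p = 0.745, limma). Of the other Fabp and Slc27a genes, 6 of 9 were in the table, and together they had 1766 to 2225 normalized reads a liver. Fabp3, the heart form, had means of 47.3 ± 5.94 and 34.4 ± 19.1 and the very low Slc27a6 had 44.6 ± 16.2 and 48.7 ± 9.23 (SD, n = 3 each).

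Factors known to act on these genes, and their PPARα targets, had no common direction. Of 12 nuclear receptors and other factors, 7 had higher and 5 lower means. Srebf1, which drives the synthesis of fatty acids, had 52837, 43792 and 48788 in control and 34010, 34234 and 40659 in LKO livers (log2 fold change −0.42, standard error 0.097, adjusted p = 0.548, limma), without overlap. Nr1i3, the constitutive androstane receptor, was highest at 0.13. Of 20 PPARα target genes, 11 had higher and 9 lower means, with a median of 0.019. Their mean log2 level was 0.10, −0.11 and 0.02 in LKO livers 1, 2 and 3, and −0.12 to 0.06 in control livers. The order of the LKO livers was that of Fabp1 and also of the hepatocyte, male-biased and female-biased lists. Acot2, a mitochondrial thioesterase that releases fatty acids from CoA, had 2068, 1788 and 2130 in control and 1242, 1479 and 1529 in LKO livers (log2 fold change −0.50, standard error 0.098, adjusted p = 0.548, limma). Cyp4a14, a fatty acid hydroxylase, was highest at 0.35 with a standard error of 0.43.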

How the data were processed

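PolyA-selected RNA of 3 control and 3 LKO livers was sequenced. The authors' notes name FastQC, STAR with mm10, HTSeq and DESeq2. Versions, annotation and counting settings are not given in the sources used here. The deposited signal is a read count per gene over the size factor of its library, so it is scaled between livers but not for length. Division by the value of 1 read gave whole reads for 100% of values, within 0.01. No columns of other samples were used.

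limma (version 3.58.1, R 4.3.3) was fitted with an eBayes trend to log2(value + 1), which understates the change of low genes, over the 17297 genes that reached a value of 1 in 3 or more livers. Adjustment was by Benjamini-Hochberg. Alternatives were a pseudocount of 0.1, no filter, at least 10 reads in every liver, scaling to all reads, a replicate block, each liver left out, edgeR (version 4.0.16) and DESeq2 (version 1.42.0). The scripts were tested on simulated data. Differences within a group exceeded sampling noise, so each liver was 1 replicate.

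The 10 genes and all lists were chosen with earlier results of these data known. All 10 are named. From each of the 7 lists of fatty acid uptake and its control, the genes with the largest and smallest log2 fold change are named. Only genes with a mean of at least 10 were eligible, and any gene past the threshold is named too. The marker and sex-biased lists did not follow this rule, only some of their genes are named, and small counts are not always named in full. Genes with an unadjusted p under 0.05 outside the rule, and marker genes used as checks, were chosen after their values were seen. RPKM and sequences used GENCODE M21 and RefSeq (GRCm38.p6).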

Additional observations from a re-analysis of the deposited data

How the results depend on the processing

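None of the 10 genes was called in any of the 14 alternatives, in which the lowest adjusted p of the set ran from 0.252 (without LKO liver 2) to 1.00 (limma, edgeR or DESeq2). Of the other genes on the 7 lists, DESeq2 called 4 and limma without control liver 3 called 1, and the count ran from 0 to 1 with each liver left out. The log2 fold change of Fabp2 was 0.00076 in DESeq2. With each liver left out in turn, log2 fold changes on both sides of 0 were found for Fabp2 (−0.13 to 0.13), Fabp5 (−0.012 to 0.29), Slc27a4 (−0.039 to 0.076), Vldlr (−0.39 to 0.020) and Lpl (−0.15 to 0.0055), and for the log2 ratio of Fabp5 to Fabp1 (−0.24 to 0.18). The cause was not tested. Those of Fabp1 (0.12 to 0.37), Slc27a5 (0.09 to 0.33), Slc27a2 (0.04 to 0.20), Cd36 (−0.17 to −0.05) and Fabp4 (−0.56 to −0.15) and the log2 ratio of Fabp4 to Fabp1 (−0.76 to −0.26) kept their sign in these 6 fits. Over all genes, limma called 1, edgeR 2 and DESeq2 84, and limma called 13 without LKO liver 2. The labels do not say whether livers of the same number were paired. Deviations of same-numbered livers from their group means correlated at −0.058, −0.019 and −0.11, which cannot settle it. With the replicate block, 0 of the 10 genes and 0 of all genes were called, and the log2 fold change of Fabp4 was −0.35. The lowest count among the 10 genes, 603 reads, had a counting error of 4.07%. A p that misses the threshold does not show that values were equal.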
